A study of Mus musculus with 8 samples.

Results

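Molecular chaperones are proteins that bind unfolded or misfolded chains and help them fold, and the genes described here were those of the heat shock proteins, the DNAJ co-chaperones and the CCT chaperonin. Members were the rows whose gene symbol starts with Hspa, Hspb, Dnaja, Dnajb, Dnajc or Cct followed by a digit, or with Hsp90, together with Hspd1, Hspe1 and Hsph1. This rule reads gene names, and it took 81 of the 24453 rows. By the known place and inducibility of their products, 8 members belonged to the CCT ring, 8 to mitochondria, 13 to the endoplasmic reticulum (ER), 8 to the stress-induced cytosolic set and 12 to the constitutive cytosolic set, and the other 32 formed no set.

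Hsp70 proteins (Hspa genes) bind short hydrophobic stretches in an ATP cycle that J-domain proteins (Dnaj genes) start and exchange factors end, and Hsp90 proteins finish the folding of kinases and receptors. CCT is a ring-shaped chaperonin of the cytosol, built of Tcp1 and the Cct products, that folds actin and tubulin. Hsp60 (Hspd1) with its lid Hsp10 (Hspe1) is the chaperonin of mitochondria. Heat shock factor 1 (Hsf1) drives the stress-induced set when proteins unfold in the cytosol, and the unfolded protein response drives the ER set. In T cells, activation and growth are known to raise the demand on all of these systems.

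The study set regulatory T cells (Treg cells) of a pair of mouse lines beside each other and beside wild-type (WT) cells, to ask whether Treg cells hold distinct subsets. T143 (3 libraries) and T138 (2 libraries) were made by somatic cell nuclear transfer, so each line goes back to the nucleus of a single Treg cell and carries its rearranged receptor. WT (3 libraries) was not made by nuclear transfer. In the series description T138 stands for naturally occurring Treg cells, and T143 shows signs of agonist-induced development. All 8 libraries carry the strain label NOD-Foxp3GFP-Rag1-/-, WT included, and it is not known if WT mice lacked Rag1. No treatment was given, and cells were sorted by flow cytometry for CD4 and Foxp3 before stranded sequencing of poly(A) RNA. Titles and model labels were followed for grouping, although the source name of T143 replicate 1 speaks of a T138 mouse and WT replicate 1 has one that speaks of a T143 mouse. Nothing states that replicates came from separate mice, so a p-value here measures spread among the 8 libraries only, which may be technical.

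Depth, recovered from the deposited values, was 7.83 to 12.6 M reads in T143, 15.84 and 18.41 M in T138, and 14.64 to 22.64 M in WT, so T143 values rest on the fewest reads. Cd4 and Cd3e were present in every library and were not called in any comparison, whereas Foxp3, Il2ra, Ctla4 and Ikzf2 were called lower in T143 than in both other groups. In normalised read counts, Foxp3 averaged 6305 ± 2387 in T143, 41507 ± 489.9 in T138 and 33832 ± 3550.4 in WT (SD, n = 3, 2 and 3 libraries). Transcripts of a neutrophil and monocyte list of 10 genes summed to 0.607, 1.07 and 3.53% of the signal in T143, against 0.161 and 0.0376% in T138 and at most 0.00579% in WT. A list of 8 dendritic cell and MHC class II genes summed to 0.0436, 0.18 and 0.125% in T143, against 0.656 and 0.493% in T138 and at most 0.0108% in WT. All genes of both lists were above 0 in every T143 and T138 library. In bulk libraries, fewer cells of a type and less RNA per cell cannot be told apart.

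Of the 81 members, 72 passed the filter (2 or more libraries with a value of 1 or above), and the other 9 (Cct8l1, Dnajb7, Dnajb8, Dnajc5b, Dnajc5g, Hspb2, Hspb3, Hspb7 and Hspb8) were not tested. Per kilobase of transcript, Hsp90ab1, the constitutive cytosolic Hsp90, had the highest level of the 80 members with a known length, at 7654.8 ± 1159.2 in T143, 6119.5 ± 848.9 in T138 and 8442.5 ± 1213.7 in WT (SD). The ER members Hspa5 and Hsp90b1 came next, at 3585.7 ± 56.3 and 2866.4 ± 278.4 per kilobase in T143, against 3140.4 ± 76.0 and 2763.0 ± 25.8 in T138 and 3171.6 ± 501.2 and 2465.9 ± 322.6 in WT. In T143 the CCT subunit Cct5 stood at 3064.2 ± 571.1 per kilobase, a range that overlapped that of Hsp90b1. In T138 Cct5 stood at 1430.0 ± 31.4 per kilobase, below Hsp90b1. Together, the 81 members made up 0.872, 0.808 and 0.716% of the signal in T143, against 0.624 and 0.666% in T138 and 0.77, 0.703 and 0.788% in WT. Chaperone transcripts thus took a smaller share in both T138 libraries than in any other.

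More chaperone genes were higher than lower in T143 against T138, and 7 of the 16 higher ones belonged to the CCT ring. Changes are given as log2 differences of value + 1, with standard errors, and a gene was called at an adjusted p under 0.05 in limma over all 15547 tested genes. Against T138, 16 members were called higher and 2 lower in T143 (22.2 and 2.78% of those tested), while 10.8% of all tested genes were called higher and 10.2% lower, 21.0% in all. The members' median change was 0.23 and that of all genes 0.15. Quantile normalization, which moved the median of all genes from 0.15 to 0.01, gave 14 higher and 4 lower members. Without T138 replicate 2 the count of higher members was 6, and without T143 replicate 2 it was 9. The lower count was 1 without T138 replicate 1 and 5 without WT replicate 2. Median centring ended the higher calls of Cct2, Cct8, Dnaja2, Hspa14 and Hsph1 (adjusted p = 0.0595 to 0.152) and left 11. Without both libraries with a mismatched source name, the same calls and that of Hspa9 were lost (adjusted p = 0.0501 to 0.141). Losses stated gene by gene are those from leaving out single libraries unless another alternative is named.

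In T138, no member was called higher than in WT and 5 were called lower, against backgrounds of 5.74% of all genes higher and 5.3% lower (11.0% in all). At an unadjusted p under 0.05 limma had 5 members higher and 17 lower. On recovered reads edgeR called 0 higher and 4 lower, and DESeq2 called 1 higher and 8 lower. After quantile normalization 1 member was higher and 5 were lower, and after median centring 0 were higher and 1 (Hspd1) was lower. The lower count was 1 without T138 replicate 2 or WT replicate 3, 2 without T143 replicate 2 or WT replicate 1, and 3 without T138 replicate 1, and the higher count was 1 without T138 replicate 1, WT replicate 1 or WT replicate 3.

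Compared with WT, T143 had 4 members called higher and 6 called lower, where the backgrounds were 11.7% and 12.1% of all genes (23.8% in all). Median centring gave 1 higher and 7 lower, quantile normalization 7 and 6, a filter of 50 in 2 libraries 7 and 6, and DESeq2 10 and 5. The balance of directions in this comparison thus differed between alternatives. Median centring ended the higher calls of Dnaja2, Dnajc15 and Dnajc3 (adjusted p = 0.0579 to 0.306). Without both libraries with a mismatched source name, these calls and the lower ones of Dnajc18, Dnajc4 and Hspa8 were lost (adjusted p = 0.0543 to 0.224). The higher count was 1 without T143 replicate 1, T143 replicate 2 or WT replicate 3, and 2 without T138 replicate 1 or WT replicate 2. The lower count was 1 without T143 replicate 3, 2 without T143 replicate 2 or WT replicate 3, and 3 without WT replicate 2. It also fell when the library of each line richest in neutrophil transcripts (T143 replicate 3 and T138 replicate 1) was left out. The 3 comparisons share libraries (T138 stands in the first 2 and WT in the last 2), so their values are set side by side and are not independent.

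**Figure D1:**
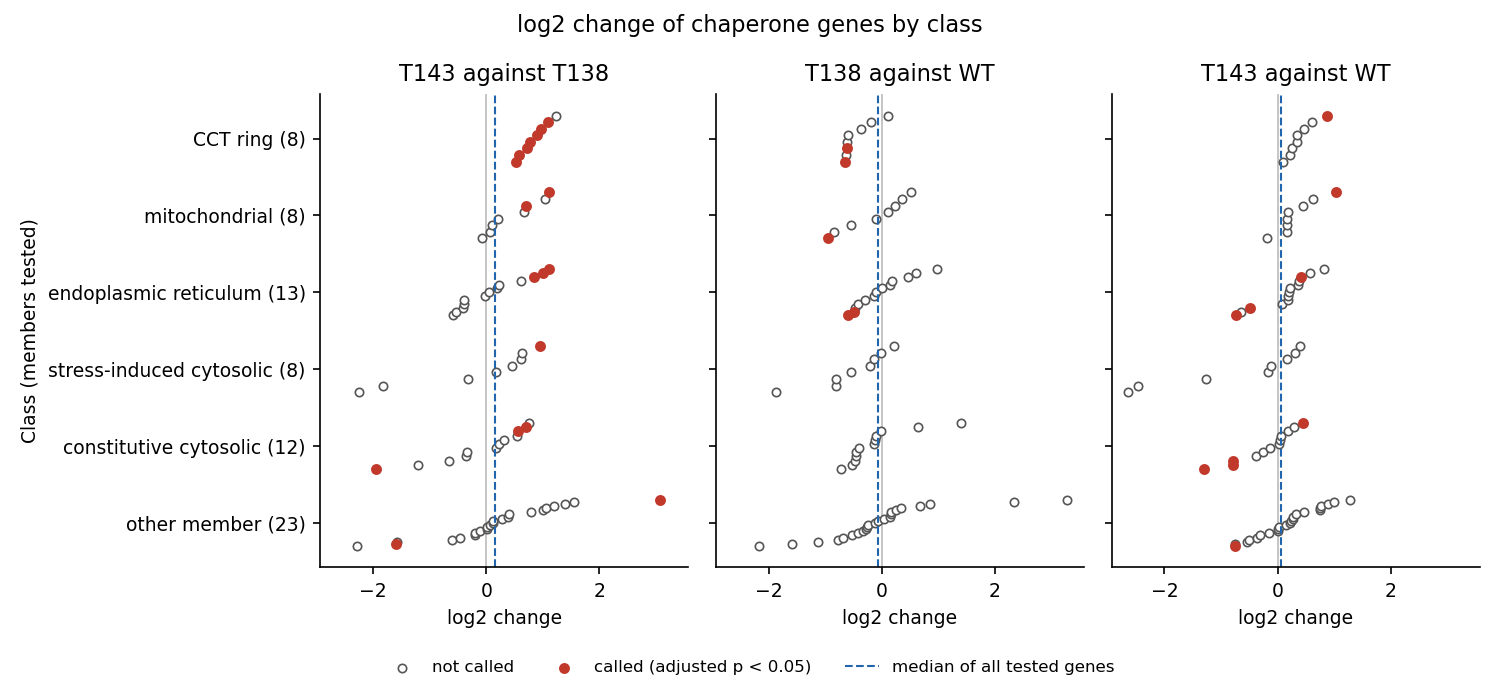
Log2 change of each tested chaperone gene by class, for T143 against T138, T138 against WT and T143 against WT, with called genes marked. In T143 against T138, 7 of the 8 CCT genes are called higher, with a class median of 0.83, while the ER class is centred at 0.05.

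The CCT ring was higher in T143 than in T138 for 7 of its 8 members, with changes between 0.53 and 1.08, and the 8th, Cct6b, was near the floor, taken as the value of 3 reads (2.07 to 5.97 by library). Cct5, which encodes the epsilon subunit (chromosome 15, 31590800 to 31601846 of GRCm38), had normalised read counts of 6772, 5602 and 4659.7 in T143, against 2691 and 2609 in T138 and 4584, 3209 and 4480.2 in WT. All T143 libraries lay above all libraries of the other groups, and T138 lay below all WT libraries, an order that 19.8% of all genes showed in T138 against WT and that 20.0% showed in T143 against WT. The change against T138 was 1.08 ± 0.20 (limma, adjusted p = 0.00426), or 2.12-fold. Cct4, the delta subunit, had 5099, 4349.8 and 3598 in T143, against 2322 and 2289 in T138 and 3803, 3232 and 3818 in WT. Its T143 and WT values overlapped, while both T138 libraries were below every other library. Cct4 changed by 0.90 ± 0.17 in T143 against T138 (limma, adjusted p = 0.00451) and by -0.65 ± 0.17 in T138 against WT (adjusted p = 0.0328).

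The other called subunits followed with smaller or like changes against T138. Cct7 (eta) changed by 0.96 ± 0.19, with a limma adjusted p = 0.00574. For Cct3 (gamma) the change was 0.72 ± 0.17 (adjusted p = 0.0125), and it was also called lower in T138 than in WT, with a change of -0.62 ± 0.17 (adjusted p = 0.0357). Cct8 (theta) and Cct2 (beta) changed by 0.58 ± 0.16 and 0.53 ± 0.16 (adjusted p = 0.0251 and 0.0398). The groups T143 and T138 did not overlap for any of the 7, which 28.0% of all tested genes showed in that direction.

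Cct6a, the zeta subunit, had WT values close to those of T138. Its values were 4275, 3829 and 3219 in T143, against 2366 and 2055 in T138 and 2046, 1934 and 2189.6 in WT. T138 and WT overlapped, and T143 was above both, so the change was 0.77 ± 0.16 against T138 (limma, adjusted p = 0.0077) and 0.87 ± 0.14 against WT (adjusted p = 0.00186). For Cct2 as well, T138 and WT overlapped and T143 lay above both. The change of Cct2 against WT, 0.34 ± 0.14, was not called (limma, adjusted p = 0.114). Cct6a was the only ring member called in T143 against WT by limma on the deposited scaling. After quantile normalization or without T143 replicate 3, 2 were called, and 3 with DESeq2. Cct6b, its paralog known from testis, had 58 reads over all libraries and was at 0 in 1 T138 and 1 WT library.

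Tcp1, the alpha subunit that the naming rule leaves out, was higher in T143 as well. Its normalised read counts were 4569, 4195 and 3985 in T143, against 2209.6 and 2412 in T138 and 2892, 2847 and 3308 in WT. T143 lay above all other libraries, with changes of 0.88 ± 0.14 against T138 (limma, adjusted p = 0.00206) and 0.50 ± 0.12 against WT (adjusted p = 0.0162). The call against WT was lost without T143 replicate 2 (adjusted p = 0.051), after median centring (0.37, adjusted p = 0.138) and without both libraries with a mismatched source name (0.41, adjusted p = 0.0935). Of 10 CCT partners with Tcp1 among them, which include the prefoldin subunits that hand chains to the ring, 1 was called higher against T138 (Tcp1) and 2 against WT. The second was the prefoldin subunit Vbp1, at 1211 ± 91.7 in T143, 1040.1 ± 307 in T138 and 632 ± 227 in WT (SD), with a change of 0.99 ± 0.24 against WT (adjusted p = 0.015), lost without WT replicate 2 or 3 (adjusted p = 0.054 to 0.0651).

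The ring as a whole took 0.228, 0.198 and 0.173% of the signal in T143, against 0.119 and 0.112% in T138 and 0.167, 0.135 and 0.165% in WT. Its median change against T138 was 0.83 where that of all genes was 0.15, a difference of 0.68 that was 0.73 after quantile normalization and 0.62 with either count model. Cct4, Cct5 and Cct7 kept their call against T138 under every one of the 19 alternatives. Cct6a lost it without T138 replicate 2 (adjusted p = 0.0807), Cct3 without T138 replicate 1 or 2 (adjusted p = 0.069 to 0.0789), Cct8 without T143 replicate 1 or 2, or T138 replicate 2 (adjusted p = 0.0633 to 0.217) and Cct2 without T143 replicate 1 or 2, T138 replicate 1 or 2, or WT replicate 1 (adjusted p = 0.0512 to 0.163). Without T138 replicate 2, 3 subunits were called. Cct2 and Cct8 also lost their calls after median centring (adjusted p = 0.152 and 0.11), which left 5 subunits called, and without both libraries with a mismatched source name (adjusted p = 0.112 and 0.0821). The lower calls in T138 against WT were lost for Cct4 without T143 replicate 2, T138 replicate 1 or 2, or WT replicate 1 or 3 (adjusted p = 0.0542 to 0.16) and for Cct3 without T143 replicate 2, T138 replicate 1 or 2, or WT replicate 1 or 3 (adjusted p = 0.0583 to 0.155).

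Neutrophil and monocyte transcripts were higher in T143 than in T138 as well, for 6 of the 10 genes on that list. T143 replicate 3 had the largest sum of these (3.53%) and the lowest ring share of the T143 libraries. Without it and T138 replicate 1, these transcripts still summed to 0.607 and 1.07% in T143, against 0.0376% in T138. With the library richest in them left out of each line (T143 replicate 3 and T138 replicate 1), 5 of the 7 ring members were called, and Cct2 and Cct3 were not (0.58 and 0.80, adjusted p = 0.13 and 0.0549). A list of 12 proliferation genes summed to 0.0944, 0.161 and 0.215% of the signal in T143, against 0.0586 and 0.0553% in T138 and 0.0443, 0.105 and 0.114% in WT, and 5 of the 12 were called higher in T143 than in T138. Within T143, the library order of this list was also the reverse of that of the ring share. The dendritic cell and MHC class II list was highest in T138 (0.656 and 0.493%). The part of these lists in the ring's level was not tested. Among the genes outside the chaperones whose log2 values were most like the ring's mean over the 8 libraries were Nudc, Adh1, Mrps34 and Cdh13, with Pearson r of 0.988, 0.982, 0.98 and 0.979, which is a description of libraries that share groups and scaling.

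**Figure D2:**
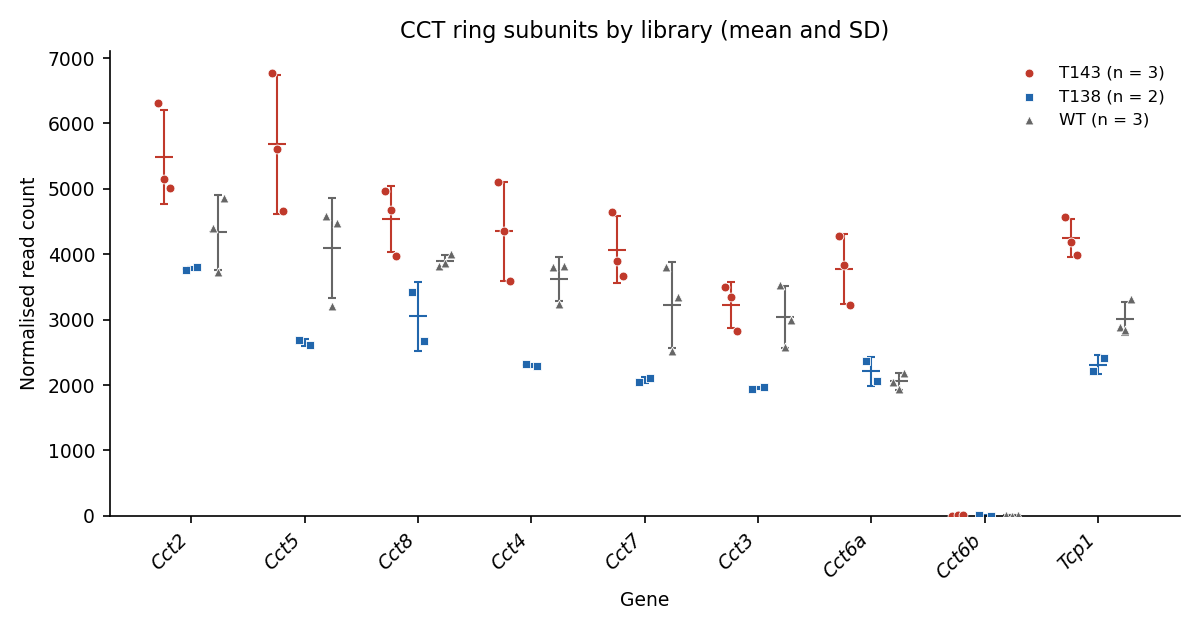
Normalised read counts of the CCT ring members and Tcp1 in each library, with bars at the mean ± SD of each group. For Cct5 the T143 libraries lie between 4659.7 and 6772, above the WT libraries (3209 to 4584) and the T138 libraries (2609 and 2691).

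In mitochondria, the folding chamber Hsp60 was at a lower level in T138 than in both T143 and WT, and T143 and WT overlapped. Hspd1 (chromosome 1, 55077833 to 55088243) had 1228, 1366 and 1097 in T143, against 529 and 603 in T138 and 1101, 1052 and 1142 in WT. It was 2.17-fold higher in T143 than in T138, a change of 1.12 ± 0.16 (limma, adjusted p = 0.00142), and T138 changed by -0.96 ± 0.16 against WT (adjusted p = 0.0045). Between T143 and WT the difference was 0.16 ± 0.15, with a 95% interval of -0.16 to 0.48. Both calls held in all 19 alternatives, and the call of T138 against WT was the only member call of that comparison to do so.

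Hspd1 and its lid gene Hspe1 lie head to head on chromosome 1, and the 250 bases before their RefSeq starts share 215 bases (GRCm38.p6, chr1:55087933-55088147). The annotated extent of Hspd1 reaches past this window, so a further start lies upstream of the one used. The sequence before Hspd1 is shown because it carries a heat shock element for both genes at once, written on the minus strand from chr1:55087933-55088182, with the element in capitals:
Hspd1: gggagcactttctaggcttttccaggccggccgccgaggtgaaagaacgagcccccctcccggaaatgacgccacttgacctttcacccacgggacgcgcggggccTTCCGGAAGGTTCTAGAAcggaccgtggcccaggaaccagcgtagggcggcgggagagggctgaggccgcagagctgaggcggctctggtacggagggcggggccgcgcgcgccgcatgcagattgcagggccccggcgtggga
The motif searched was GAANNTTCNNGAA on either strand, and 2 overlapping matches lie 144 to 127 bases before the Hspd1 start and 89 to 72 bases before the Hspe1 start. Of 66 members with a RefSeq window, 3 held the motif (Dnajb6, Hspd1 and Hspe1), as did 0.514% of all 27025 genes with a window. That no other member's window held these letters says nothing about other forms of the element or about members without a window. A match is a description and no evidence of binding.

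Hspe1, which shares that stretch, had 279, 225 and 168 in T143, against 132 and 86.4 in T138 and 259, 142 and 195 in WT. T143 lay above T138 and T138 below WT, but the spread was wide, and the change of 1.03 ± 0.38 in T143 against T138 was not called (limma, adjusted p = 0.0799). Hspa9, the mitochondrial Hsp70 that pulls proteins through the import channel, had 3441, 3571 and 3045 in T143, against 2413 and 1737 in T138 and 2987, 2991 and 2958 in WT. T143 did not overlap T138, and the change was 0.71 ± 0.16 (limma, adjusted p = 0.0124), lost without T138 replicate 2 (adjusted p = 0.134) and when both libraries with a mismatched source name were left out. The named pseudogenes of Hspd1 (5), Hspe1 (6) and Hspa9 (1) in GENCODE could take up or lend reads, and exons of Hspd1 and Hspe1 overlap on opposite strands, so these counts are uncertain to that extent.

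Of the J-domain proteins placed in the mitochondrial class, 1 was called. Dnajc15, an inner membrane protein that restrains respiratory complex I, had 384, 337 and 348 in T143, against 288 and 172 in T138 and 238, 120.3 and 181 in WT. T143 lay above both other groups, and the change against WT was 1.03 ± 0.31 (limma, adjusted p = 0.0356), a call lost without T143 replicate 1, 2 or 3, or WT replicate 2 or 3 (adjusted p = 0.0741 to 0.102). Dnaja3 and Dnajc19, co-chaperones of Hspa9, and Dnajc11 and Dnajc30 were not called in any comparison, and their changes in T143 against T138 lay between -0.08 and 0.21. For the class, 2 of 8 members were called higher in T143 than in T138, 1 lower in T138 than in WT (2 without T138 replicate 1 or T143 replicate 3), and 1 higher in T143 than in WT. In that order these were 25.0, 12.5 and 12.5% of the class, against 10.8, 5.3 and 11.7% of all tested genes. The median change of the class in T143 against T138 was 0.44. Of 12 genes of mitochondrial import and proteolysis, 1 was called, higher in T143 than in T138 (8.33%, against 10.8% of all tested genes). This was the outer membrane receptor Tomm70a, at 2403 ± 294 in T143, 1660.4 ± 93.3 in T138 and 1949 ± 261 in WT (SD). Its change of 0.53 ± 0.17 (limma, adjusted p = 0.0451) lost its call without T143 replicate 1 or 2, or WT replicate 3 (adjusted p = 0.0644 to 0.14). The call was also lost without T138 replicate 1 or 2 (0.47 and 0.58).

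**Figure D3:**
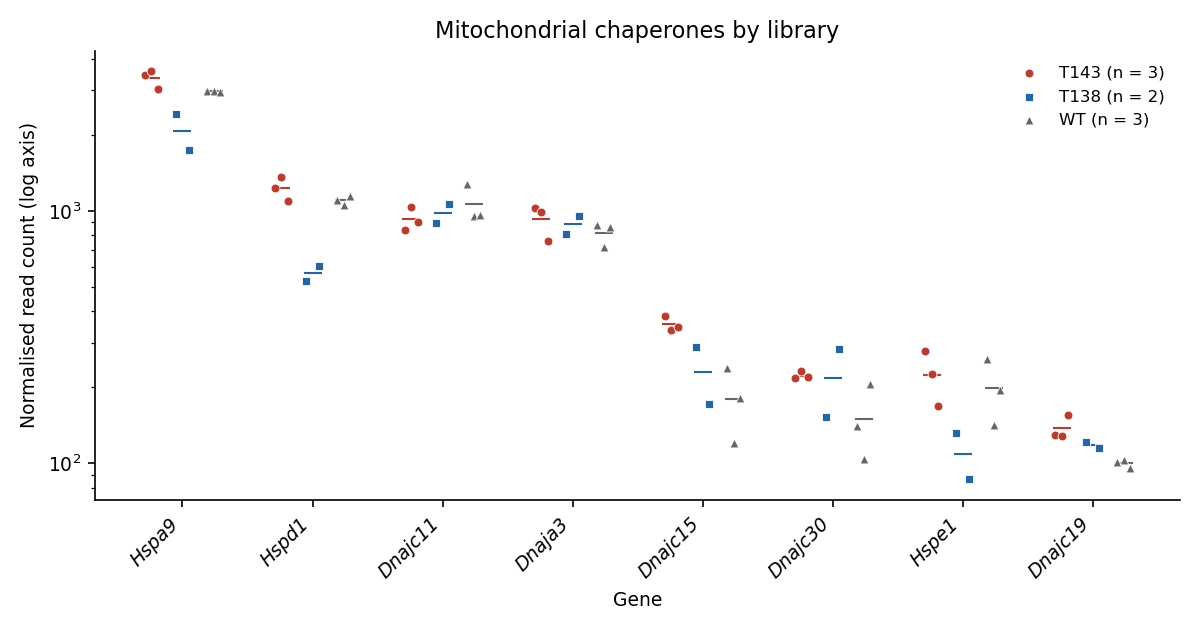
Normalised read counts of the 8 mitochondrial members in each library on a log axis, with a bar at each group mean. Hspd1 stands at 1097 to 1366 in T143, against 529 and 603 in T138 and 1052 to 1142 in WT.

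In the ER, the J-domain proteins Dnajc3 and Dnajc10 were higher in T143 than in T138, while the most abundant ER chaperones Hspa5 and Hsp90b1 were not called. Dnajc3 (chromosome 14, 118937932 to 118981702), a co-chaperone of Hspa5 also known to inhibit the stress kinase PERK, had 3994, 3437 and 3614 in T143, against 1841 and 1808 in T138 and 2515, 3156 and 2687 in WT. These 3 groups did not overlap, with T143 highest and T138 lowest. Its change was 1.01 ± 0.15 in T143 against T138 (limma, adjusted p = 0.0014) and -0.60 ± 0.15 in T138 against WT (adjusted p = 0.0251). T143 exceeded WT by 0.41 ± 0.13 (adjusted p = 0.0464), a call that most alternatives did not keep (12 of 19).

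Dnajc10, which reduces disulfide bonds of chains to be degraded, had 2376, 2333 and 2184 in T143, against 1318 and 1234 in T138 and 1937, 1774 and 1688 in WT. These groups again did not overlap, and the change was 0.85 ± 0.14 in T143 against T138 (limma, adjusted p = 0.00229). Hspa13, an ER Hsp70 without a peptide-binding domain, had 525, 557 and 632 in T143, against 321 and 214 in T138 and 466, 245 and 299 in WT. T143 lay above both other groups, T138 and WT overlapped, and the change against T138 was 1.12 ± 0.30 (limma, adjusted p = 0.0254). Dnajc3 and Dnajc10 kept their calls against T138 in all 19 alternatives, whereas Hspa13 lost its call without T143 replicate 2 or 3, or T138 replicate 2 (adjusted p = 0.0609 to 0.185). In T138 against WT the call of Dnajc3 was lost without T138 replicate 1 or 2, or WT replicate 2 or 3 (adjusted p = 0.0533 to 0.136), and that of Dnajc10 (-0.49 ± 0.14, adjusted p = 0.0435) in 12 of 19 alternatives.

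Hspa5 (BiP), the ER Hsp70, had 9447, 9199.7 and 9462 in T143, against 8346 and 8066 in T138 and 9512, 6906 and 8444 in WT. Its T143 values were above those of T138 by a small margin, and the change of 0.19 ± 0.15 was not called (limma, adjusted p = 0.403), with a 95% interval of -0.15 to 0.53. Hsp90b1 (Grp94), the ER Hsp90, had 7331, 8903 and 8058 in T143, against 7857 and 7754 in T138 and 5994, 7800.0 and 7105 in WT. These groups overlapped in every comparison, and the interval of T143 against T138 was -0.29 to 0.39. The promoters of Hspa5, Hsp90b1 and Dnajc3 are shown because they hold the same ER stress response element while their mRNA levels differed between the lines to a different degree. They are the 250 bases before the RefSeq start in GRCm38.p6 (plus strand of chr2:34771840-34772089, minus strand of chr10:86705445-86705694 and plus strand of chr14:118937682-118937931), with the element in capitals:
Hspa5: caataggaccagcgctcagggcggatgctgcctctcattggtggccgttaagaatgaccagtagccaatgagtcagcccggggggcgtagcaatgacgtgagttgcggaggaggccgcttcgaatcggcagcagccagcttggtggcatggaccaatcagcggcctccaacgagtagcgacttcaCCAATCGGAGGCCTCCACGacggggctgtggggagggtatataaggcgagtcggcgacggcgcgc
Hsp90b1: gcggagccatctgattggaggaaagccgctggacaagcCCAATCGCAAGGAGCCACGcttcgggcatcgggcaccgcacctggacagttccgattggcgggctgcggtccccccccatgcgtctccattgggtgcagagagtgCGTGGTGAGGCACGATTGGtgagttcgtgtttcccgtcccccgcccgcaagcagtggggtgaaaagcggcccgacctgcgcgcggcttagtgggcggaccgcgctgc
Dnajc3: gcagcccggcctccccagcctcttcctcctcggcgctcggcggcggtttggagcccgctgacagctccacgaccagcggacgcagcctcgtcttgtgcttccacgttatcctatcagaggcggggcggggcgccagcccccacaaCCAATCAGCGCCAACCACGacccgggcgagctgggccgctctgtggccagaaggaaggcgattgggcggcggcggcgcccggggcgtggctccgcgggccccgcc
The motif searched was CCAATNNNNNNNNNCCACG on either strand, and 0.13% of all 27025 genes with a window held it. Among the 66 members with a window these 3 did, Hsp90b1 with 2 matches. No other member's window held these letters, which says nothing about other forms of the element.

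Of the remaining ER members, 2 were called in the main fit, both lower in T143 than in WT. Dnajb11, a co-chaperone of Hspa5, and Dnajb9, which delivers clients for degradation, were not called there. With the filter of 50, quantile normalization, edgeR and DESeq2, Dnajb11 was called higher in T143 than in WT (adjusted p = 0.0153 to 0.048). Dnajc18 and Dnajc1, J-domain proteins of the ER membrane, were called lower in T143 than in WT, with changes of -0.73 ± 0.21 and -0.48 ± 0.15 (limma, adjusted p = 0.0269 and 0.0418). These calls were lost without T143 replicate 2 or 3, or WT replicate 2 (adjusted p = 0.0671 to 0.0779) for Dnajc18 and without T143 replicate 2 or 3, or WT replicate 2 or 3 (adjusted p = 0.0907 to 0.131) for Dnajc1, and Dnajc1 was called by neither count model. Dnajb12, Dnajb14, Dnajc16 and Dnajc25 were not called in any comparison. The class had 3 of 13 members higher in T143 than in T138 (23.1%, against 10.8% of all tested genes) and none lower. Its median of 0.05 was below that of all genes on the deposited scaling (0.15) but above it after quantile normalization (0.11 against 0.01). In T143 against WT, 1 was called higher and 2 lower (7.69 and 15.4%, against 11.7 and 12.1% of all tested genes). For that comparison edgeR gave 3 and 1, DESeq2 4 and 1, quantile normalization 3 and 2, and median centring 0 and 3.

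Folding enzymes and unfolded protein response genes of the ER, a list of 24, had 4 higher and 0 lower in T143 against T138, 0 higher and 1 lower in T138 against WT, and 7 higher and 2 lower in T143 against WT. The higher calls were 16.7% of the list against T138 and 29.2% against WT, where those of all tested genes were 10.8 and 11.7%. P4hb (protein disulfide isomerase) had 5445, 5188 and 7402 in T143, against 3527 and 3242 in T138 and 3923, 2685 and 4028 in WT. T143 was above both other groups, by 0.81 ± 0.21 against T138 and 0.77 ± 0.19 against WT (limma, adjusted p = 0.0211 and 0.0146), and the call against T138 was lost without T138 replicate 1 or 2 (adjusted p = 0.0784 to 0.139). Canx, the lectin chaperone calnexin, changed by 0.65 ± 0.13 against WT (adjusted p = 0.00552), and the secreted stress protein Manf by 1.00 ± 0.22 (adjusted p = 0.00775). Both kept those calls in all 19 alternatives. Sdf2l1, which works with Hspa5 and Dnajb11, changed by 1.43 ± 0.32 against WT (adjusted p = 0.0097). P4hb and Sdf2l1 lost their calls against WT when the library of each line richest in neutrophil transcripts was left out (changes of 0.61 and 1.15).

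Against T138, Derl1 (a degradation channel component), Pdia3 and Manf changed by 0.59 ± 0.16, 0.53 ± 0.15 and 0.81 ± 0.24 (limma, adjusted p = 0.0219, 0.0351 and 0.0369). These were lost without T143 replicate 2 or T138 replicate 1 (adjusted p = 0.0682 to 0.163), T143 replicate 1 or 2, T138 replicate 1 or 2, or WT replicate 3 (adjusted p = 0.0503 to 0.272) and T143 replicate 1, 2 or 3, T138 replicate 1 or 2, or WT replicate 3 (adjusted p = 0.0504 to 0.25), in that order. Lower calls were present too. The degradation ligase Syvn1 was lower in T143 than in WT (a change of -0.62 ± 0.15, adjusted p = 0.0143), lost without T143 replicate 2 or WT replicate 3 (adjusted p = 0.0543 to 0.0595). The mannosidase-like Edem1 was lower in T138 than in WT (a change of -0.70 ± 0.17, adjusted p = 0.0228), lost without T138 replicate 1 or 2, or WT replicate 2 (adjusted p = 0.0517 to 0.181). Edem1 was also called lower in T143 than in WT (a change of -0.48 ± 0.15, adjusted p = 0.0408), a call lost in 11 of 19 alternatives. The regulators Xbp1, Atf4, Atf6, Ddit3, Ern1 and Eif2ak3 were not called in any comparison.

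**Figure D4:**
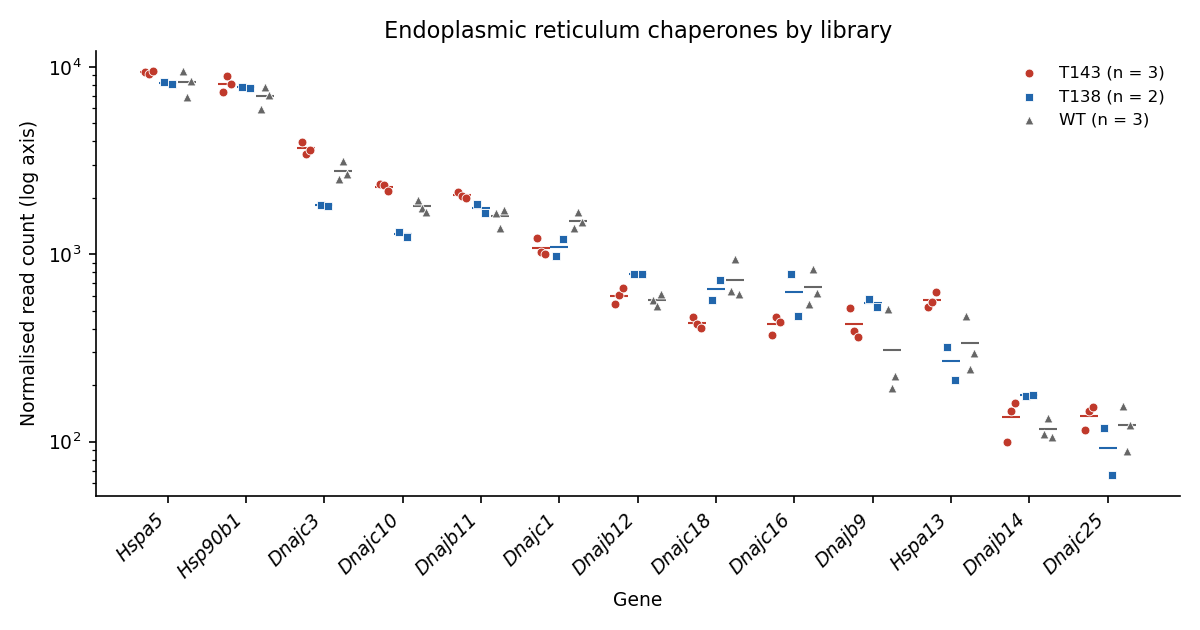
Normalised read counts of the 13 ER members in each library on a log axis, with a bar at each group mean. Dnajc3 stands at 3437 to 3994 in T143, against 1808 and 1841 in T138 and 2515 to 3156 in WT, while the Hsp90b1 groups overlap.

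Among the stress-induced cytosolic members, the inducible Hsp70 pair varied widely between libraries of a group. In T143 against T138, 1 of the 8 members was called higher (12.5%, against 10.8% of all tested genes), and none was called in the other comparisons. Hspa1a (chromosome 17, 34969359 to 34972156), the inducible Hsp70, had 629, 136 and 9.90 in T143, against 236 and 913 in T138 and 760.4, 294 and 698 in WT. These groups overlapped, and within T143 alone the highest value was 63.52 times the lowest. Hspa1b, its near-identical neighbour, had 1132, 209 and 22.3 in T143, against 333 and 1171 in T138 and 1789, 538 and 1386 in WT, with a ratio of 50.82 within T143. Reads of this pair cannot be assigned with certainty, and Hspa1a also overlaps a gene on the opposite strand. Their SD within groups on the log2 scale was above that of 99.8 and 99.7% of tested genes with a level above the median.

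Neither gene was called in limma, with changes in T143 against WT of -2.46 ± 1.23 and -2.64 ± 1.20 (adjusted p = 0.182 and 0.15). Without T143 replicate 1, whose source name speaks of a T138 mouse, both were called lower in T143 than in WT (adjusted p = 0.0231 for Hspa1a and 0.0133 for Hspa1b), and Hspa1a was also called lower than in T138 (adjusted p = 0.0462). Leaving out that library took the changes against WT to -3.80 for Hspa1a and -3.98 for Hspa1b. Without T143 replicate 3, the lowest for both genes, the changes were -0.88 and -1.18 against WT and -0.66 and -0.36 against T138, none of them called, so their size rested on single libraries. Dnajb1, the Hsp40 that Hsf1 induces with Hspa1a, had 3158, 1909 and 1464 in T143, against 1841 and 3662 in T138 and 2848, 1488 and 2606 in WT. Its libraries stood in the same order within each group as those of Hspa1a, with T143 replicate 1, T138 replicate 2 and WT replicate 1 highest, and its changes were not called. This order held for 10 of 72 tested members (13.89%, Hspa1a among them) and for 3.59% of all tested genes. Hspa1b and Dnaja1 shared it, and so did Cct3, Cct7, Dnaja3, Dnajc8, Dnajc9 and Dnajc28 outside the stress-induced class. Hsph1, Hsp90aa1 and Dnajb4 did not.

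Hsph1, the exchange factor Hsp110, was the one stress-induced member called. It had 2019.9, 2026 and 998 in T143, against 730.3 and 946 in T138 and 1005, 1355 and 1330.0 in WT. T143 did not overlap T138, though T143 replicate 3 was close to it, and the change was 0.94 ± 0.30 (limma, adjusted p = 0.0456). The call was lost in 11 of 19 alternatives, among them without T143 replicate 1 or 2, T138 replicate 1 or 2, or WT replicate 2 or 3 (adjusted p = 0.0586 to 0.224). Without T143 replicate 3, Hsph1 was also called higher in T143 than in WT (adjusted p = 0.0219). Hsp90aa1, the inducible Hsp90, averaged 1405 ± 221 in T143, 1049.9 ± 363 in T138 and 1131 ± 119 in WT (SD), and its change of 0.45 ± 0.22 in T143 against T138 was not called (adjusted p = 0.175). Dnaja1 and Dnajb4, cytosolic J-domain proteins, were not called either, and Hspb1 (Hsp27) was at 0 in 5 of 8 libraries.

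Immediate early genes, which activation and cell handling are known to induce, were at their highest in T138. Their list of 13 summed to 0.248, 0.236 and 0.241% of the signal in T143, against 0.68 and 0.613% in T138 and 0.338, 0.157 and 0.215% in WT, and 9 of 13 were called lower in T143 than in T138. The stress-induced chaperones took 0.062, 0.045 and 0.03% in T143, against 0.03 and 0.058% in T138 and 0.056, 0.038 and 0.051% in WT. Shares of this stress-induced class overlapped between the 3 groups, whereas the immediate early sums of T138 lay above those of every other library.

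**Figure D5:**
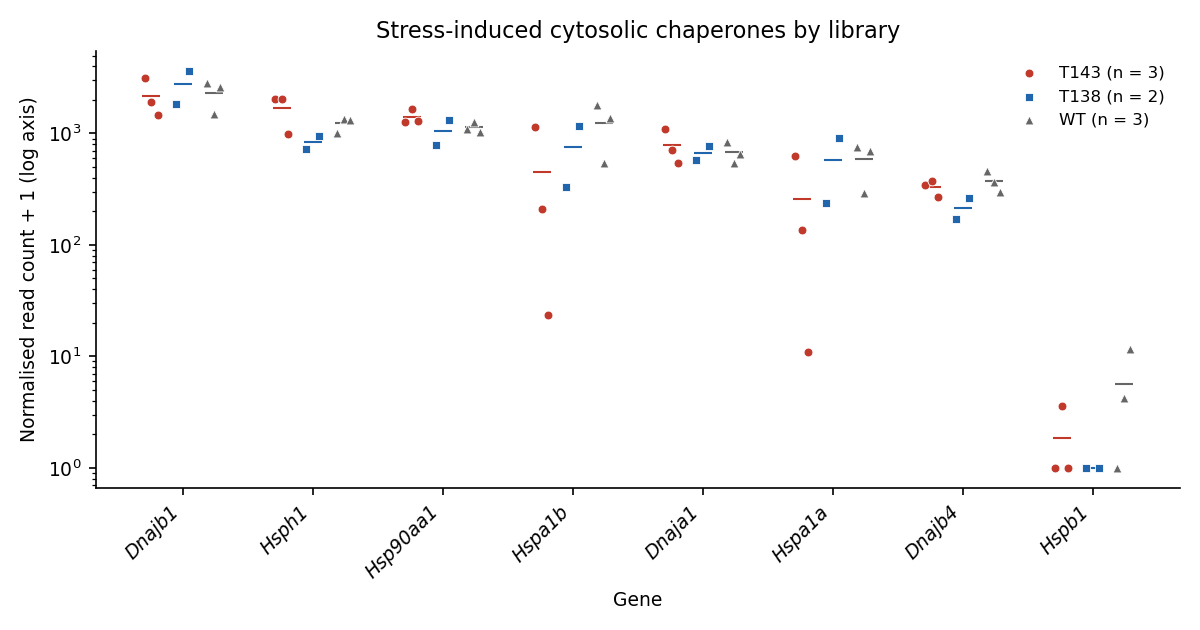
Normalised read count + 1 of the 8 stress-induced members in each library on a log axis, with a bar at each group mean. Hspa1a stands at 629, 136 and 9.90 in T143, against 236 and 913 in T138 and 760.4, 294 and 698 in WT.

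Hsf1, the factor that drives this set, was lower in T143 than in both other groups. It had 1033, 1079 and 832 in T143, against 1889.7 and 2189.5 in T138 and 1675, 1609 and 1809 in WT. No T143 library overlapped any other, and the changes were -1.06 ± 0.16 against T138 and -0.80 ± 0.15 against WT (limma, adjusted p = 0.00182 and 0.0035), both called in all 19 alternatives. Stub1 (CHIP), a ubiquitin ligase that marks clients of Hsp70 and Hsp90, had 1274, 1315 and 1194 in T143, against 1945 and 1905 in T138 and 1799, 1756 and 1783 in WT. It was lower in T143, with changes of -0.61 ± 0.13 against T138 and -0.50 ± 0.12 against WT (limma, adjusted p = 0.00998 and 0.0129), and the first call was lost without T138 replicate 1 or 2 (adjusted p = 0.0552 to 0.0604). The call against WT was lost without the library of each line richest in neutrophil transcripts (-0.46). It was also lost without both libraries with a mismatched source name (-0.50, adjusted p = 0.0507).

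A list of 21 heat shock regulators and cytosolic co-chaperones had 2 members higher and 3 lower in T143 against T138, 1 higher and 0 lower in T138 against WT, and 2 higher and 3 lower in T143 against WT. Its shares called higher and lower were 9.52 and 14.3% in both T143 comparisons, near the 10.8 and 10.2% of all tested genes against T138 and the 11.7 and 12.1% against WT. Tomm34, a cytosolic co-chaperone of import, was the other lower member, with a change of -0.83 ± 0.20 against T138 (limma, adjusted p = 0.0166), lost without T138 replicate 2 (adjusted p = 0.156). The Hsp90 co-chaperones Ahsa1, which speeds its ATPase, and Fkbp4, an immunophilin, were higher, by 0.75 ± 0.20 and 0.87 ± 0.23 against T138 (adjusted p = 0.0228 and 0.0239). Ahsa1 was lost without T143 replicate 1 or 2, or T138 replicate 1 or 2 (adjusted p = 0.0625 to 0.113) and Fkbp4 without T143 replicate 1 or 2, or T138 replicate 2 (adjusted p = 0.068 to 0.201). Against WT, Fkbp4 changed by 0.75 ± 0.21 (adjusted p = 0.0245), lost without T143 replicate 1 or 2, or WT replicate 1 or 2 (adjusted p = 0.0682 to 0.0843). The exchange factor Bag2 changed by 2.54 ± 0.70 (adjusted p = 0.0238), lost without T143 replicate 2 or 3, or WT replicate 1 or 2 (adjusted p = 0.0529 to 0.106), at 136 ± 62.8 in T143, 34.8 ± 13.0 in T138 and 25.2 ± 18.4 in WT (SD). Ptges3 (p23) was higher in T138 than in WT by 1.05 ± 0.28 (adjusted p = 0.0371), lost without T143 replicate 2, T138 replicate 1 or 2, or WT replicate 2 or 3 (adjusted p = 0.0573 to 0.212).

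Among the constitutive cytosolic members, some J-domain proteins differed in opposite directions. Dnajc7, which passes clients between Hsp70 and Hsp90, had 3662, 3375 and 3001 in T143, against 3977 and 4474 in T138 and 5250.4, 6358 and 5746 in WT. These groups did not overlap, and T143 was below WT, with a change of -0.79 ± 0.13 (limma, adjusted p = 0.00221), a call kept in all 19 alternatives. Dnajb6, which holds back protein aggregation, had 51.7, 85.3 and 61.9 in T143, against 274 and 233 in T138 and 108, 199 and 194 in WT. T143 lay below both other groups, with changes of -1.94 ± 0.41 against T138 and -1.30 ± 0.37 against WT (limma, adjusted p = 0.00905 and 0.0281). The first was lost without T138 replicate 1 (adjusted p = 0.0539) and the second without T143 replicate 1 or 3, or WT replicate 2 or 3 (adjusted p = 0.0616 to 0.101).

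Hspa8 (Hsc70), the constitutive Hsp70, had 659, 552 and 476 in T143, against 779 and 1004 in T138 and 1041, 770.0 and 1135 in WT. T143 lay below both other groups, and the change was -0.80 ± 0.20 against WT (limma, adjusted p = 0.0168), lost without T143 replicate 2 or 3, or WT replicate 3 (adjusted p = 0.0514 to 0.0721). Against T138 its change of -0.66 ± 0.23 was not called (limma, adjusted p = 0.0603), though it was in 4 of 19 alternatives. Processed copies of Hspa8 lie elsewhere in the genome, and the sources used here do not give how reads shared with them were counted. Hsp90ab1 had 21998, 19677 and 16195 in T143, against 13908 and 16934 in T138 and 20550.5, 18644 and 24631 in WT. Its groups overlapped between T143 and each other group, while T138 lay below every WT library, as 19.8% of all tested genes did. None of its changes was called in the main fit. After quantile normalization it was called lower in T138 than in WT (-0.59, limma adjusted p = 0.0436). Dnaja2, a co-chaperone of Hspa8, changed by 0.56 ± 0.16 in T143 against T138 and by 0.44 ± 0.14 against WT (limma, adjusted p = 0.0314 and 0.0463). Hspa14, an Hsp70 found at ribosomes, changed by 0.70 ± 0.19 against T138 (adjusted p = 0.0251). Dnaja2 lost its calls without T143 replicate 1 or 2, or T138 replicate 1 or 2 (adjusted p = 0.0773 to 0.135) against T138 and without T143 replicate 1 or 2, T138 replicate 1 or 2, or WT replicate 2 or 3 (adjusted p = 0.069 to 0.137) against WT, and Hspa14 without T143 replicate 1 or 2, or T138 replicate 1 or 2 (adjusted p = 0.0587 to 0.165). The class had 2 higher and 1 lower of 12 in T143 against T138 (16.7 and 8.33%, against 10.8 and 10.2% of all tested genes). None was called in T138 against WT. In T143 against WT, 1 was higher and 3 were lower (8.33 and 25.0%, against 11.7 and 12.1% of all tested genes).

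Outside these classes, 23 of 32 members were tested and a pair were called in T143 against T138, 1 higher and 1 lower. These were 4.35% each, against 10.8 and 10.2% of all tested genes. Dnajc4 (chromosome 19, 6987911 to 6992591) had 229, 269.8 and 248 in T143, against 704 and 809 in T138 and 431, 329 and 522 in WT. These 3 groups did not overlap, with T138 highest and T143 lowest. Its change was -1.60 ± 0.24 in T143 against T138 (limma, adjusted p = 0.00176), a call kept in all 19 alternatives, and -0.76 ± 0.22 against WT (adjusted p = 0.0298), lost without T143 replicate 1, 2 or 3, or WT replicate 1 or 3 (adjusted p = 0.061 to 0.112). Dnajc4 and Dnajb6 were the 2 members called lower in T143 than in T138. Dnajb3, known from testis, had 47 reads in all, of which 3, 9 and 13 lay in T143, against 0 and 1 in T138, and its call (adjusted p = 0.0433) was lost in 13 of 18 alternatives. No member of this group was called in T138 against WT, where 5.74% of all tested genes were called higher and 5.3% lower. Dnajc4 was the only one called in T143 against WT (4.35% lower, against 12.1% of all tested genes). In 28 of the 81 members an exon overlaps one of a gene on the opposite strand, Cct6a, Cct7, Cct8, Dnajc7, Dnajb6 and Dnajc1 among them, and the sources used here do not give whether counting used strand.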

How the data were processed

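Poly(A) RNA of sorted CD4-positive, Foxp3-positive mouse T cells was sequenced in 3 T143, 2 T138 and 3 WT libraries. The authors deposited a normalised signal per gene, scaled so that each library has the same total (15.59 M). Dividing by a step found for each library gave whole reads for 100.0% of values within 0.01, so the signal is a scaled read count. Named in the submitters' processing notes, with no role or order, are STAR 2.5.2b, HOMER 4.8, CASAVA 1.8.2, mm10 and edgeR. A value of 3 reads, the limit that a count of 0 allows, was 2.07 to 5.97, for counting error only.

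Tests were made with limma 3.58.1 in R 4.3.3 (mean-variance trend, robust) on log2(value + 1), over 15547 of 24453 genes with at least 1 in at least 2 libraries. All 8 libraries entered 1 fit of group means, and calls were two-sided at a Benjamini-Hochberg adjusted p under 0.05. Differences of log2(value + 1) understate changes of low genes. The procedure was tested on simulated data. Count models on the recovered reads were alternatives: edgeR 4.0.16 called 1294 genes higher and 1424 lower in T143 against T138, 709 and 569 in T138 against WT, and 1669 and 1594 in T143 against WT, and DESeq2 1.42.0 called 2076 and 1847, 1229 and 1040, and 2311 and 1935. Other alternatives were pseudocounts of 10 and 0.1, no filter, a filter of 50, quantile normalization, median centring, a replicate block, and leaving out each library. Pairs of libraries were left out as well. The first pair had another mouse in the source name (T143 replicate 1 and WT replicate 1). The second held the library of each line richest in neutrophil transcripts (T143 replicate 3 and T138 replicate 1), and its removal left 1 T138 library. T138 replicate 1 (0.161%) was below every T143 library in these transcripts.

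The members, classes and partner lists were chosen with earlier results of these data known. Named genes were all members of the CCT, mitochondrial, ER and stress-induced classes, Hspa8, Hsp90ab1, up to 6 higher and 6 lower other members with the smallest adjusted p in each comparison, and up to 4 called genes of each partner list. The calls of Fkbp4 in T143 against T138 and of P4hb and Edem1 in T143 against WT fell outside that rule. They were given after their values were seen. Positions came from the RefSeq table of GRCm38.p6 and lengths from GENCODE M21 transcripts, and the 250 bases before RefSeq starts were searched for motifs. Genes of the T cell marker list were all in the table but Trac, which was not used here. A single gene that the likeness ranking named is not reported here.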

Additional observations from a re-analysis of the deposited data

How the results depend on the processing

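Each count of called members was recomputed under 19 alternatives. For T143 against T138 (16 higher, 2 lower), leaving out single libraries gave 6 to 16 higher and 1 to 5 lower. The lower count was 4 after quantile normalization, and it fell without the library of each line richest in neutrophil transcripts. For T138 against WT (0 higher, 5 lower), leaving out single libraries gave 0 to 1 higher and 1 to 7 lower. The higher count was 1 with the filter of 50, after quantile normalization, without both libraries with another mouse in the source name, and with DESeq2. The lower count was 1 after median centring, 2 without the libraries with another mouse in the source name, and 8 with DESeq2. It also fell without the library of each line richest in neutrophil transcripts. For T143 against WT (4 higher, 6 lower), leaving out single libraries gave 1 to 5 higher and 1 to 6 lower. The higher count was 2 with no filter, 7 with the filter of 50 or after quantile normalization, 1 after median centring, and 10 with DESeq2. The lower count was 3 without the libraries with another mouse in the source name, and it also fell without the library of each line richest in neutrophil transcripts. Fits with fewer libraries have fewer samples, and otherwise the cause was not tested.

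With the replicate block, T143 against T138 had 15 members higher and 2 lower, T138 against WT 0 and 5, and T143 against WT 4 and 6, so no count moved by over 1.5 times. The block ended the calls of Cct2 and Dnajb3 in T143 against T138 (adjusted p = 0.0507 and 0.089) and that of Dnajc3 in T143 against WT (adjusted p = 0.0559). Deviations from group means of libraries with the same replicate number correlated at -0.062 to 0.055, so the numbers were not taken to pair libraries.

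For the named genes, 3981 values in 210 pairs of a gene or class median and a comparison were recomputed. Of these, 272 lost a call, 59 gained one, 9 class median values moved by more than the members' median standard error, and no called change turned its direction. Depth limits members with few reads. Cct6b, Dnajb3 and Hspb1 had 58, 47 and 19 reads over all libraries, and differences in them rest on few reads.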
